A study of Mus musculus with 28 samples.

Results

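The mouse genes of cytochrome P450 families 1 to 3 were taken as every gene whose symbol is Cyp followed by 1, 2 or 3, a subfamily letter and a number. This pattern matched 58 of the 49585 genes counted in 28 liver libraries. Of these, 56 had at least 1 count and are the members described here, while Cyp2c66 and Cyp2w1 had 0 counts in every library. A mean of at least 0.5 normalized counts was required for testing, and 50 members passed it.

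The libraries came from livers of 7 WT and 7 SIRT6-tg males and 7 WT and 7 SIRT6-tg females, all C57BL/6JOlaHsd, 5 to 7 months old, and fed a standard chow. The tg mice came from a single line that overexpresses SIRT6 in the whole body, so that no single liver cell type is targeted, and the controls were WT littermates. All mice were fasted before sampling. SIRT6 is a chromatin-bound NAD+-dependent deacylase. The comparisons ask how P450 transcript levels differ with SIRT6 overexpression in each sex, whether that difference is the same in both sexes, and how the sexes differ within each genotype.

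Cytochromes P450 are haem enzymes of the endoplasmic reticulum that insert oxygen into drugs, carcinogens, steroids and fatty acids, with electrons passed on by P450 reductase (Por) and cytochrome b5. Families 1 to 3 carry most of the drug oxidation of the liver, and their genes lie in clusters of close copies that arose by duplication. In rodents many of these copies are made mainly in one sex, under the sex-specific pattern of growth hormone release, and others are induced through the nuclear receptors CAR (Nr1i3) and PXR (Nr1i2) or the aryl hydrocarbon receptor (Ahr).

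Totals lay between 18758863 and 35393069 counts per library. Sirt6 itself lay at 1.69 to 3.24 CPM (normalised read count relative to library size) in male WT and at 198 to 358 CPM in male SIRT6-tg, and at 1.80 to 6.22 CPM in female WT against 16.4 to 50.2 CPM in female SIRT6-tg. The mean of male SIRT6-tg was thus 9.30-fold that of female SIRT6-tg, so sex and transgene level cannot be told apart in any comparison of the genotype effect between the sexes. Among genes of other cell types, the T cell list was lower in male SIRT6-tg for 10 of 10 genes, with a summed level of 18.4 to 55.3 CPM in male WT and 5.71 to 8.71 CPM in male SIRT6-tg. The macrophage list was lower for 10 of 10 and the stellate cell list for 7 of 7, whereas 8 of 15 secreted hepatocyte proteins were higher and 0 lower. The falls of the T cell, macrophage and stellate lists kept these counts when scaled on library size or on the hepatocyte proteins. The rise of the secreted hepatocyte proteins did not, as 0 of 15 were called with library size alone. Of 10 cytokine and chemokine genes 7 were lower, of 12 acute-phase genes 3 were higher and 5 lower, of 7 endothelial genes 1 was lower, of 6 cholangiocyte genes 0 changed, of 5 red cell genes 1 was higher, and of 4 tested genes of other tissues 1 was higher and 1 lower. Scaled on the hepatocyte proteins, 8 cytokine, 6 acute-phase, 4 endothelial, 3 cholangiocyte, 0 red cell and 2 other-tissue genes were lower. In that scaling 0 genes of these lists were higher. None of these lists had a gene called between the female groups. Prss1, Ins2 and Slc12a1, markers of pancreas and kidney, had 0 counts in every library. In whole liver, fewer cells of a type and less RNA per cell cannot be told apart, and the part of this shift in the P450 differences of males was not tested.

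Several members are near copies, so the sequences of the promoters and the overlap of the transcripts are given before the values. Windows of 300 bases, from 250 before to 50 after the start, were taken from RefSeq (GRCm38.p6), and 51 windows were found for 48 members. Each is written 5′ to 3′ on the strand of its gene. The first set shows the Cyp2c genes of chromosome 19 and the Cyp3a genes of chromosome 5 on which the results below turn, with their near copies. Capitals mark ATCAAT, read on either strand (ATTGAT on the other), the core letters bound by the liver factor Onecut1. The Cyp2c windows are chr19:39812765-39813064 (Cyp2c40), chr19:39648993-39649292 (Cyp2c67), chr19:39741052-39741351 (Cyp2c68) and chr19:39886720-39887019 (Cyp2c69), and the Cyp3a windows are chr5:145469674-145469973 (Cyp3a16) and chr5:145805825-145806124 (Cyp3a44), all on the minus strand.
Cyp2c40: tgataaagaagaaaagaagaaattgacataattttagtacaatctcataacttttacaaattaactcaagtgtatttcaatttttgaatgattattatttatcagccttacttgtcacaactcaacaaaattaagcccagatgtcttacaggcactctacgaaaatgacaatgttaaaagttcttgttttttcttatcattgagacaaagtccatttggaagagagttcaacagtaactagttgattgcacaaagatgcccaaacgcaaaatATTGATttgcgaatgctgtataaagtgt
Cyp2c67: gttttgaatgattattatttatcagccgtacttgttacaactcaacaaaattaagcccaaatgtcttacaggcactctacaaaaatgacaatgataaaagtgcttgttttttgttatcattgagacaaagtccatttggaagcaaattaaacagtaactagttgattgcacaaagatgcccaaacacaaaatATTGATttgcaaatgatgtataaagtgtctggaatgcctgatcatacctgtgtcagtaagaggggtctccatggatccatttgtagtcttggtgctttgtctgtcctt
Cyp2c68: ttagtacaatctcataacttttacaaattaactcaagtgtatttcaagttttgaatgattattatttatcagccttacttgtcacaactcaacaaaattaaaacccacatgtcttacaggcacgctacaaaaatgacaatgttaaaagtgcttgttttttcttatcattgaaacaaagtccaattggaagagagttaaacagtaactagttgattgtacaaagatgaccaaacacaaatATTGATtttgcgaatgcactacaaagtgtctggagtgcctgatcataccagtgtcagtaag
Cyp2c69: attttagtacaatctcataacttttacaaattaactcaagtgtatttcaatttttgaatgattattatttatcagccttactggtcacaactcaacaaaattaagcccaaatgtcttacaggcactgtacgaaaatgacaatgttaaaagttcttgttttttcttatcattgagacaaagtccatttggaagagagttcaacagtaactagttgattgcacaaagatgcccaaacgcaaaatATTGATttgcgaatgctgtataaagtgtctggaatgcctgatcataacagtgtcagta
Cyp3a16: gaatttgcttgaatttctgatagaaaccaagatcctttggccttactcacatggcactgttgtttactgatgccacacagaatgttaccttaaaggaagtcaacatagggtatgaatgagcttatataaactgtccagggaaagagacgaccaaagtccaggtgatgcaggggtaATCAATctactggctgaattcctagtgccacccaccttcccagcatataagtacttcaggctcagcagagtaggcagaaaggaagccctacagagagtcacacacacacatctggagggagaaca
Cyp3a44: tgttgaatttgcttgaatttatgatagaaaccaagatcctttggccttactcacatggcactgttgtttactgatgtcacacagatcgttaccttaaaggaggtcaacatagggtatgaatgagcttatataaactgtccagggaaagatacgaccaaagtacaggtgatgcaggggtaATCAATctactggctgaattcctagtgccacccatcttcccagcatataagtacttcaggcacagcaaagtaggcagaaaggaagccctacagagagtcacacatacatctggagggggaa

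Identity was counted over the aligned windows, with gaps and unpaired ends as differences. It was 91.1% for Cyp2c68 and Cyp2c69, 80.9% for Cyp2c40 and Cyp2c69, and 93.4% for Cyp3a16 and Cyp3a44. The starts of near copies are not always set at the same base, as ATTGAT lies at 22 from the start in Cyp2c40 and at -8 in Cyp2c69. Such an offset lowers these values, so they do not rank the copies by likeness. The letters ATCAAT were present in 10 of the 51 windows (19.6%), against 7.54% of all 32851 promoter windows. Besides the 6 windows shown they were in those of Cyp1a2, Cyp2c37, Cyp2c50 and Cyp3a57. Their 11 matches overlapped none of the other 4 motifs searched, which are spelled out next and were also read on both strands. Near copies are counted as separate windows for ATCAAT and for these motifs. The windows of Cyp2c37 and Cyp2c50, for example, were 86.6% identical. Matches in the member windows are thus not independent, and the difference from the share of all promoters was not tested. TATAAA, the TATA box letters, were in 25 windows (49.02%), against 13.6% of all promoters. GCGTG, the core of the element bound by the aryl hydrocarbon receptor, was in 9 windows (17.6%), Cyp1a1 and Cyp1b1 among them, against 32.4% of all promoters. TTCNNNGAA, the letters bound by STAT5, were in 2 windows (3.92%), Cyp2j11 and Cyp2j12, against 8.30%, and TTGCNNCAA, letters of a C/EBP site, were in 2 windows (3.92%), against 2.08%.

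The second set shows a pair of near copies on chromosome 7 in which 1 partner was made in both sexes and the other almost only in females. Capitals mark the bases that differ between the partners. The windows are chr7:26306942-26307241 (Cyp2a4) and chr7:26835089-26835388 (Cyp2a5), both on the plus strand.
Cyp2a4: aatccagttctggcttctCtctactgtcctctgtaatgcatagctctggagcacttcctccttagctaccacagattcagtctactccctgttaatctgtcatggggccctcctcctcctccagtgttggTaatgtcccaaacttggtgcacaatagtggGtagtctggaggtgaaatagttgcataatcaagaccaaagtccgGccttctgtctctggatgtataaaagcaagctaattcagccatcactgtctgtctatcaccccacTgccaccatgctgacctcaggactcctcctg
Cyp2a5: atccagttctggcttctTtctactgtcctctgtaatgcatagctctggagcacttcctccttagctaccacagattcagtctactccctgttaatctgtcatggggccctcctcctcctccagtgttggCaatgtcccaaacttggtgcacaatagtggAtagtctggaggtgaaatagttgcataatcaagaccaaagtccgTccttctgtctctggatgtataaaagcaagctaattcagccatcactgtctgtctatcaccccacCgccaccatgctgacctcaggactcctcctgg

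The aligned windows of Cyp2a4 and Cyp2a5 differed at 5 positions and were identical over 97.7% of their length. Levels of the genes in male WT nevertheless differed, at 6.06 CPM per kilobase for Cyp2a4 and 406 CPM per kilobase for Cyp2a5 (means of 7 mice), while female WT had 570 and 423. The third set is the pair Cyp2b9 and Cyp2b13, both made mainly in females, at chr7:26173159-26173458 and chr7:26061245-26061544 on the plus strand.
Cyp2b9: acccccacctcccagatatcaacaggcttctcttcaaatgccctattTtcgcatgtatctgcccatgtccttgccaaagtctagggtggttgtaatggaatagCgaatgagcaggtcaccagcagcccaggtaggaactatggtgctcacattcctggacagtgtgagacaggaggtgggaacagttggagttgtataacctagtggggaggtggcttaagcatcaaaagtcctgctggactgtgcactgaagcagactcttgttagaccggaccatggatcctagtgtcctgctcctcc
Cyp2b13: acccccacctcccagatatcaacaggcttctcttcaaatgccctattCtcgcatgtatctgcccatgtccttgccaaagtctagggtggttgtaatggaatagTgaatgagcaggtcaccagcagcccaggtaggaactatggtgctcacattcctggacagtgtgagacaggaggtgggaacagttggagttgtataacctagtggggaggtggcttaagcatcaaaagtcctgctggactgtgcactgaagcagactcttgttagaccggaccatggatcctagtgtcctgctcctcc

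These windows differed at 2 positions and were identical over 99.3%. In transcript sequence, the copies limit how well reads can be assigned, since the authors kept reads that map to 1 place. Of the 50-base stretches of its longest transcript, Cyp2c40 shared 72.1% with a transcript of another gene (42.1% with Cyp2c69), Cyp2c69 shared 54.8%, Cyp2c67 52.8% and Cyp2c68 43.3%. The share was 40.8% for Cyp2a5, 38.01% for Cyp2a4, 40.5% for Cyp2d10, 27.3% for Cyp2b13 and 10.7% for Cyp3a16. It was 4.76% for Cyp2e1 and 0% for Cyp1b1, Cyp2f2, Cyp2r1 and Cyp3a11. Values of genes with a high share, above all Cyp2c40, Cyp2c69 and Cyp2c67, are uncertain to that extent.

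Levels were compared between genes as CPM per kilobase of exon. Summed over the 56 members, the mean was 7813 ± 1338 CPM per kilobase in WT and 10121 ± 814 in SIRT6-tg males, and 10858 ± 533 in WT and 11373 ± 1135 in SIRT6-tg females (SD, n = 7). The members took a median of 2.07% of all counts in male WT and 2.28% in male SIRT6-tg, and 2.48% and 2.47% in female WT and SIRT6-tg. The mean of male SIRT6-tg was above that of male WT, and the ranges of the 7 mice overlapped between the genotypes in both sexes. With library size alone as scaling the means of WT and SIRT6-tg males were 8733 and 9305, a ratio of 1.07 where TMM gave 1.30. Cyp2e1, which oxidizes ethanol and paracetamol, was the most abundant member in every group and made up 41.3% of the sum in both male groups and 38.2% and 38.9% in female WT and SIRT6-tg.

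Behind Cyp2e1 stood Cyp2c, 14 members that oxidize fatty acids, retinoids and many drugs, with 1175 ± 297 CPM per kilobase in WT and 1691 ± 213 in SIRT6-tg males, and 2477 ± 207 in WT and 2801 ± 233 in SIRT6-tg females. Cyp2d, the counterparts of human CYP2D6, reached 1076 ± 97.8 in WT and 1448 ± 109 in SIRT6-tg males, and 860 ± 65.0 in WT and 891 ± 28.7 in SIRT6-tg females. In this sum the mice of the male Cyp2d groups did not overlap with those of the female groups, in the direction opposite to Cyp2c. The members did not all share it: in WT the male excess was widest for Cyp2d9, while Cyp2d26 was called higher in females, as given below. Cyp3a, whose main member Cyp3a11 is the counterpart of the human drug oxidase CYP3A4, overlapped between the 4 groups and had its highest mean in male SIRT6-tg. The values were 961 ± 164, 1192 ± 235, 981 ± 140 and 947 ± 146 CPM per kilobase in the same order. Cyp2a, the coumarin and steroid hydroxylases, had 512 ± 121 and 498 ± 142 in male WT and SIRT6-tg and 1162 ± 339 and 1003 ± 561 in the females.

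Cyp2b, the subfamily with the classic CAR target Cyp2b10, showed the widest gap between the sexes, with 8.41 ± 14.1 CPM per kilobase in male WT and 383 ± 61.1 in female WT, a ratio of means of 45.5. Cyp1a, which is Cyp1a2 to all but a small part and activates aryl amines, had 303 ± 62.2, 318 ± 66.2, 244 ± 51.3 and 250 ± 48.8. Cyp2j, which makes epoxides of arachidonic acid, had 213 ± 29.8 in WT and 314 ± 18.7 in SIRT6-tg males, and 303 ± 28.1 in WT and 341 ± 18.4 in SIRT6-tg females. Cyp2f2 stood at 292 ± 36.7, 458 ± 48.8, 282 ± 34.1 and 279 ± 34.05. The single members of the subfamilies Cyp1b, Cyp2g, Cyp2r, Cyp2s, Cyp2t and Cyp2u lay below 10.5 CPM per kilobase in the mean of every group. These sums are a description and were not tested.

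**Figure D1:**
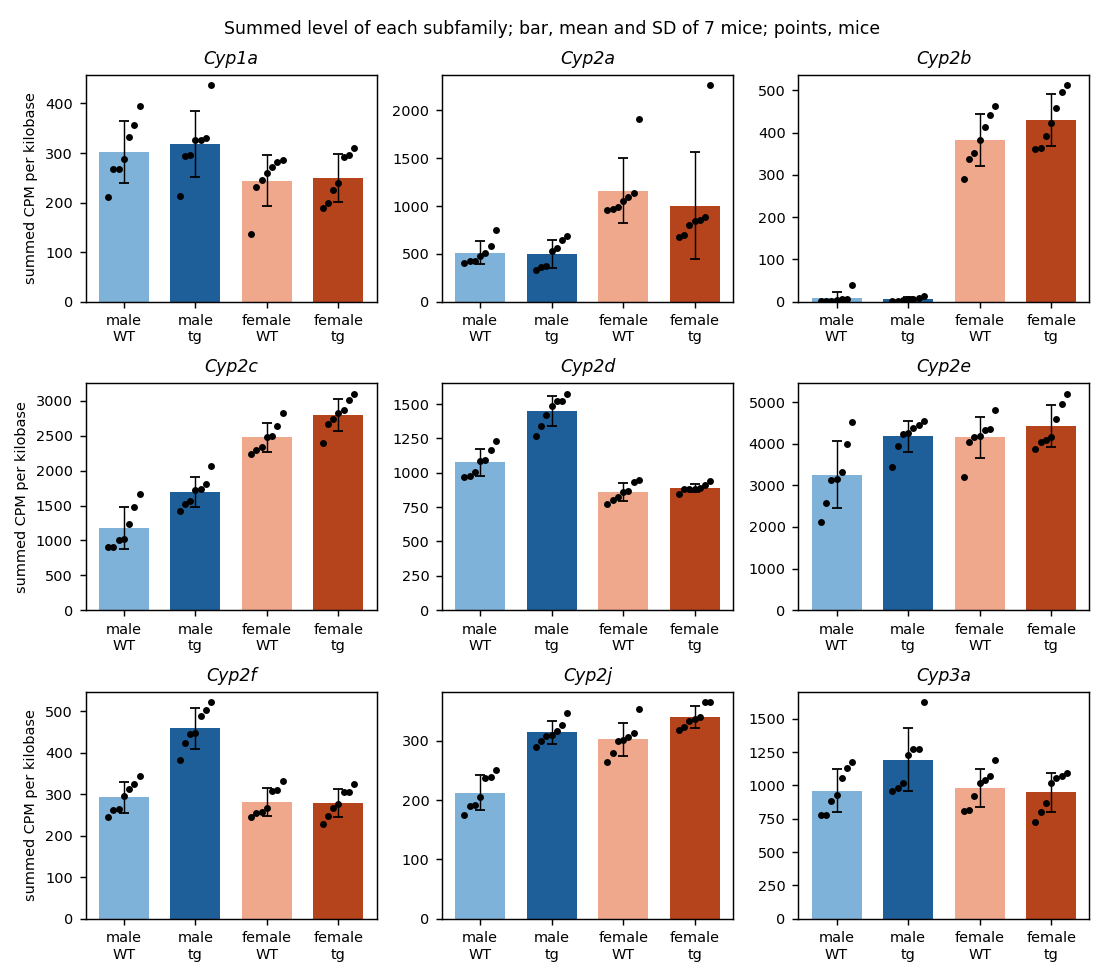
Summed CPM per kilobase of the members of 9 subfamilies (y axis, linear, from 0) in male WT, male tg, female WT and female tg. Bars are means, error bars are 1 SD and points are the 7 mice of a group. Cyp2b is near 0 in males, Cyp2c and Cyp2a are higher in females, Cyp2d is higher in males, and Cyp2f and Cyp2j of male tg lie above those of male WT in this TMM scaling.

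Of the 56 members, 6 (Cyp2b19, Cyp2b23, Cyp2j7, Cyp2j11, Cyp2j12 and Cyp2j13) had fewer than 3 counts in every library and were not tested. At this depth, differences in these genes were not detectable.

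The sexes differed widely in WT mice. Between male WT and female WT 26 of the 50 tested members were called different (edgeR quasi-likelihood test, adjusted p under 0.05), against 12.4% of all 21583 genes tested. Higher in females were 20 members (5.71% of all genes) and higher in males 6 (6.65%). The ranges of the 7 and 7 mice did not overlap for 19 members, against 2.96% of all genes, with 17 higher in females (1.64%) and 2 higher in males (1.33%). By fitted size, Cyp2b13, Cyp2c69, Cyp2c40, Cyp2a4, Cyp3a44, Cyp2b9 and Cyp2a22 had the largest excess in females, and Cyp2d9 and Cyp2u1 the largest in males.

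Cyp2b13, a gene of the Cyp2b cluster, had 0 to 1 counts in every male WT library and 6591 to 9420 counts in female WT. In CPM the female WT mice ranged from 248 over a median of 277 to 362, and no male WT mouse exceeded 0.0502 (adjusted p = 1.15e-22). A fold change is not given, because so few male counts make it depend on the prior count of the fit. Its near copy Cyp2b9 was not at 0 in males. Male WT ranged from 1.11 over 3.46 to 71.8 CPM and female WT from 260 over 368 to 530 CPM, a log2 difference of -4.95 ± 0.88 (SE, adjusted p = 0.000318), or -6.91 without male WT mouse 5. Male WT mouse 5 gave the value of 71.8, and the next male WT mouse had 8.01 CPM.

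Cyp2c69 and Cyp2c40, both on chromosome 19, were the members of the Cyp2c cluster with the widest sex gap. Cyp2c69 (chr19:39842814-39886799) had 0 to 9 counts per male WT library, which is at most 0.402 CPM, and 82.9 to 695 CPM in female WT (log2 difference -11.57 ± 0.83, adjusted p = 1.28e-10). Cyp2c40 (chr19:39767071-39812814) ranged from 0.0743 over 0.150 to 0.966 CPM in male WT and from 73.8 over 116 to 221 CPM in female WT (log2 difference -8.91 ± 0.66, adjusted p = 2.78e-10). Both genes had no male library near the lowest female library. The fits of such low male counts depend on the prior count, so the differences are sizes under this fit and not bounds. Female WT mouse 3 had the lowest level of both genes, with 82.9 CPM for Cyp2c69 and 73.8 CPM for Cyp2c40, and the highest female level of the male-type Cyp2d9, 221 CPM.

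The neighbours of these genes were graded. Cyp2c68 lay at 87.5 to 136 CPM in male WT and 263 to 429 CPM in female WT (log2 difference -1.77 ± 0.13, adjusted p = 5.09e-11). Cyp2c37 lay at 110 to 275 and 559 to 1270 CPM (log2 difference -2.36 ± 0.21, adjusted p = 2.23e-09), and Cyp2c38 at 12.6 to 31.6 and 81.1 to 168 CPM (-2.67 ± 0.20, adjusted p = 5.09e-11). Cyp2c39, a retinoic acid hydroxylase, was low throughout, with 0.633 to 1.15 CPM in male WT and 6.47 to 12.3 CPM in female WT (-3.18 ± 0.22, adjusted p = 4.48e-12). In all 4 genes every female WT mouse exceeded every male WT mouse. Cyp2c67 went slightly the other way, with 117 to 159 CPM in male WT against 85.4 to 125 CPM in female WT (0.38 ± 0.11, adjusted p = 0.0212).

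In the Cyp2a cluster, Cyp2a4, a testosterone 15-alpha hydroxylase, ranged from 1.18 over 5.19 to 29.7 CPM in male WT and from 662 over 861 to 2058 CPM in female WT (log2 difference -6.57 ± 0.69, adjusted p = 2.07e-07). Cyp2a22 had 1.07 to 5.57 CPM in male WT and 49.1 to 115 CPM in female WT (-4.90 ± 0.33, adjusted p = 1.06e-11). The coumarin hydroxylase Cyp2a5, whose promoter is that of Cyp2a4 but for 5 bases, did not pass the test, at 641 to 1291 CPM in male WT and 605 to 1128 CPM in female WT (-0.06 ± 0.25, adjusted p = 0.927).

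Cyp2d9, the testosterone 16-alpha hydroxylase of the male liver, was the counterexample. It ranged from 806 over 995 to 1312 CPM in male WT and from 31.6 over 58.3 to 221 CPM in female WT, with no overlap (log2 difference 3.64 ± 0.34, adjusted p = 1.37e-08). Cyp2u1, a fatty acid omega-hydroxylase, had 9.69 to 30.3 CPM in male WT and 3.31 to 5.41 CPM in female WT (2.49 ± 0.23, adjusted p = 5.85e-09). Cyp1b1, an oestradiol hydroxylase found mainly outside hepatocytes, was at 1.29 to 2.12 and 0.653 to 2.004 CPM (0.80 ± 0.24, adjusted p = 0.0221), with overlapping groups. Cyp2c67, Cyp2d11 and Cyp2d12 were the other members higher in males.

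Cyp2e1, Cyp3a11 and Cyp1a2 did not pass the test between the WT sexes. Cyp2e1 ranged from 4587 over 6788 to 9739 CPM in male WT and from 6913 over 9014 to 10362 CPM in female WT (log2 difference -0.35 ± 0.12, adjusted p = 0.0574), Cyp3a11 had 2485 to 4751 and 2373 to 3539 CPM (0.15 ± 0.15, adjusted p = 0.611), and Cyp1a2 had 424 to 792 and 275 to 574 CPM (0.31 ± 0.16, adjusted p = 0.220). Smaller female excesses passed the test for Cyp2j5 (-0.56 ± 0.09, adjusted p = 3.23e-05), Cyp2a12 (-0.57 ± 0.10, adjusted p = 0.000118), Cyp2d26 (-0.44 ± 0.08, adjusted p = 0.000512) and Cyp2c29 (-0.53 ± 0.16, adjusted p = 0.0213). When counts were scaled on secreted hepatocyte proteins instead, these 4 were no longer called and Cyp2d26 turned to 0.071. The split of all called members was then 17 higher in males and 14 higher in females, against 44.6% and 1.08% of all genes. With TMM, 5 of the 15 proteins were themselves lower in male WT than in female WT and 0 higher, so scaling on them raises male values of all genes. The differences of Cyp2a4, Cyp2a22, Cyp2b9, Cyp2b13, Cyp2c37, Cyp2c38, Cyp2c39, Cyp2c40, Cyp2c68, Cyp2c69, Cyp2d9 and Cyp2u1 kept their call and direction in that scaling.

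**Figure D2:**
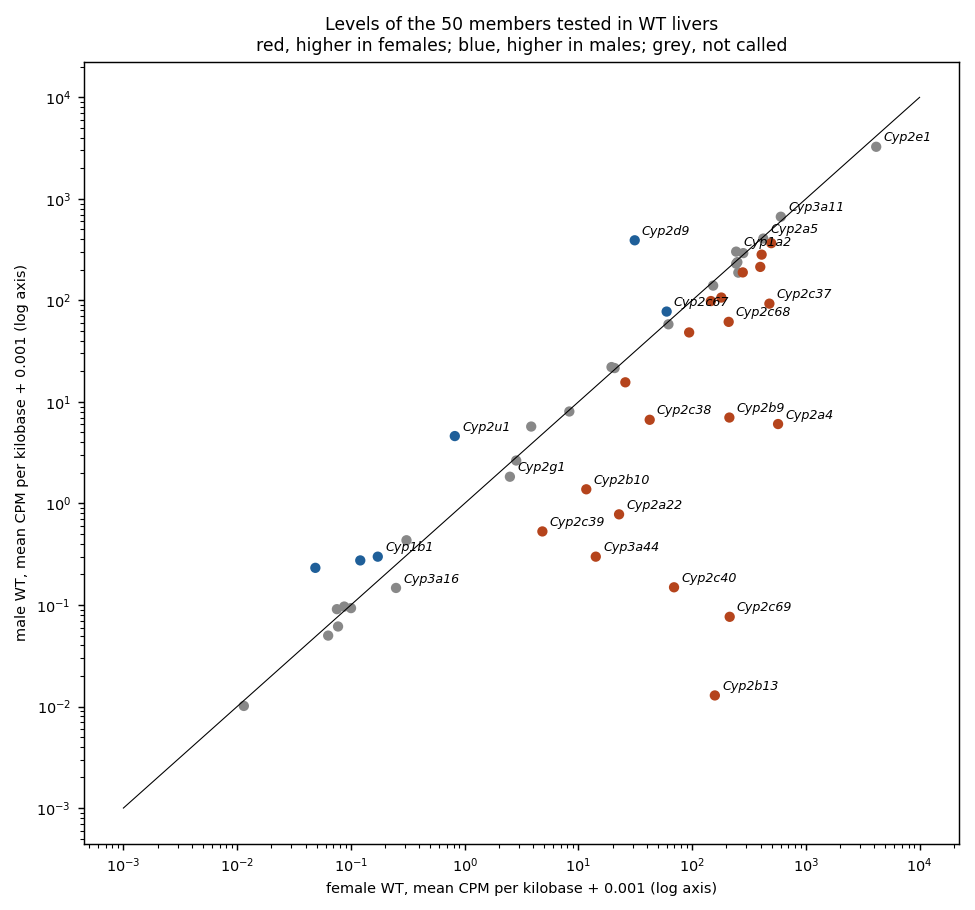
Mean level of each of the 50 tested members in female WT (x axis) and male WT (y axis), as CPM per kilobase plus 0.001 on log axes, with the line of equal level. Red points are members called higher in females, blue points higher in males and grey points not called. Cyp2b13, Cyp2c69 and Cyp2c40 lie farthest below the line and Cyp2d9 farthest above it among members over 1 CPM per kilobase, while Cyp2e1, Cyp3a11 and Cyp1a2 lie close to it.

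In males, SIRT6-tg livers differed from WT in 23 of the 50 tested members, against 20.7% of all genes tested. Of these, 20 were higher and 3 were lower, where 9.68% of all genes were higher and 11.0% lower. The ranges of 7 and 7 mice did not overlap for 8 members, against 6.98% of all genes, with 7 higher (2.60%) and 1 lower (4.37%). The median log2 fold change of the members was 0.35 and that of all genes 0.06, but with scaling on secreted hepatocyte proteins these medians were -0.0055 and -0.30, and 4 members were called higher and 4 lower, against 0.496% and 20.1% of all genes. Library size alone as scaling gave medians of 0.08 and -0.22 and 7 members higher and 4 lower, against 0.973% and 18.9% of all genes. The members' median stood 0.29 to 0.30 above that of all genes in each of the 5 scalings. A change of scaling shifts the log2 values of all genes by nearly the same amount. This distance is thus nearly fixed, and its agreement between the scalings is no separate check.

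**Figure D3:**
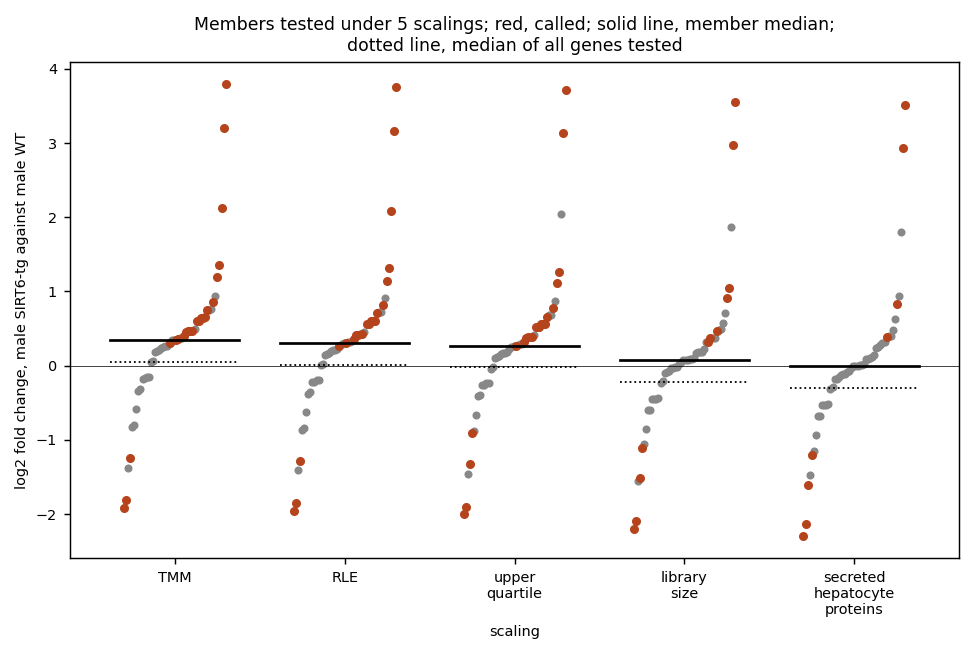
Log2 fold change of male SIRT6-tg against male WT (y axis) of the tested members under 5 scalings (x axis). Each point is a member, red where called, the solid line is the member median and the dotted line the median of all genes tested. The member median falls from 0.35 with TMM to -0.0055 with secreted hepatocyte proteins. The distance to the dotted line stays at 0.29 to 0.30, because a scaling shifts all genes nearly alike.

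Among the members higher in male SIRT6-tg, the Cyp2c cluster gave 7, which are Cyp2c29, Cyp2c37, Cyp2c38, Cyp2c40, Cyp2c54, Cyp2c68 and Cyp2c69, of 14 tested. Cyp2c40, Cyp2c69, Cyp2c68 and Cyp2c37 were called in all 24 alternative fits, the scaling on hepatocyte proteins included. Cyp2c40 in male WT mice 1 to 7 was 0.206, 0.966, 0.150, 0.133, 0.502, 0.0843 and 0.0743 CPM. In male SIRT6-tg mice 1 to 7 it was 1.03, 1.04, 11.4, 1.40, 1.57, 1.07 and 0.955 CPM. Every SIRT6-tg mouse but mouse 7 exceeded the highest WT mouse, and mouse 3 stood far above the rest (log2 fold change 3.20 ± 0.64, adjusted p = 0.000582). Without SIRT6-tg mouse 3 the log2 fold change was 2.02.

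Cyp2c69 behaved alike at lower levels. It was 0.0883, 0.300, 0.0300, 0.0334, 0.402, 0 and 0.0495 CPM in the male WT mice and 0.576, 0.541, 7.33, 0.660, 0.637, 0.578 and 0.902 CPM in the male SIRT6-tg mice. The groups did not overlap (log2 fold change 3.79 ± 0.85, adjusted p = 0.00189), and without SIRT6-tg mouse 3 the value was 2.43. The same gene had 82.9 CPM in the lowest female, so the male SIRT6-tg levels stayed far below any female. SIRT6-tg mouse 3 also had the highest Cyp2b9 of its group, 21.9 CPM against at most 3.83 CPM in the others. Windows shared between Cyp2c40, Cyp2c67, Cyp2c68 and Cyp2c69 mean that part of these low counts could be reads of the abundant copies, which was not tested.

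Cyp2c37 and Cyp2c68, expressed well in both sexes, moved less in fold but more in amount. Cyp2c37 ranged from 110 over 134 to 275 CPM in male WT and from 257 over 380 to 535 CPM in male SIRT6-tg (log2 fold change 1.19 ± 0.20, adjusted p = 6.34e-05). Cyp2c68 ranged from 87.5 over 99.4 to 136 CPM and from 128 over 184 to 222 CPM (0.75 ± 0.13, adjusted p = 9.46e-05). Both pairs of groups overlapped slightly. In female mice the same genes had 559 to 1270 CPM in WT and 914 to 1416 CPM in SIRT6-tg for Cyp2c37 and 263 to 429 and 340 to 542 CPM for Cyp2c68, and neither passed the test there (0.40 ± 0.20, adjusted p = 0.914, and 0.20 ± 0.13, adjusted p = 1.00).

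Cyp2c29, the most abundant Cyp2c member per kilobase in both male groups, had 560 to 1349 CPM in male WT and 1153 to 1776 CPM in male SIRT6-tg (0.65 ± 0.16, adjusted p = 0.00304), and Cyp2c38 had 12.6 to 31.6 and 20.4 to 44.4 CPM (0.65 ± 0.19, adjusted p = 0.0146). Both lost the call when scaled on hepatocyte proteins or on library size. Cyp2c39, at 0.633 to 1.15 and 0.825 to 1.998 CPM, did not pass (0.50 ± 0.23, adjusted p = 0.132). Cyp2b13, at 0 to 1 counts in male WT and 0 to 7 counts in male SIRT6-tg, was called (adjusted p = 0.0379) on so few counts that no fold is given, and it lost the call in 11 of 24 alternatives.

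Outside Cyp2c, Cyp2f2, Cyp2j5 and Cyp2d26 had the firmest rises in this scaling. Cyp2f2, which activates naphthalene, ranged from 495 over 598 to 696 CPM in male WT and from 773 over 906 to 1055 CPM in male SIRT6-tg (log2 fold change 0.65 ± 0.10, adjusted p = 1.27e-05). Cyp2j5 ranged from 359 over 426 to 527 CPM and from 624 over 667 to 739 CPM (0.60 ± 0.09, adjusted p = 5.75e-06). Cyp2d26 ranged from 534 over 643 to 813 and from 833 over 883.8 to 966 CPM (0.46 ± 0.08, adjusted p = 0.000137). None of the 3 had overlapping groups. With scaling on hepatocyte proteins they were at 0.28, 0.24 and 0.11 and were not called.

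Cyp2d40 also left no overlap (0.47 ± 0.16, adjusted p = 0.0355), as did Cyp2a12 (309 to 371 against 376 to 527 CPM, 0.40 ± 0.10, adjusted p = 0.00306) and Cyp2d22 (166 to 264 against 269 to 320 CPM, 0.35 ± 0.09, adjusted p = 0.00489). Cyp2d10 (0.47 ± 0.11, adjusted p = 0.00167), Cyp2u1 (0.85 ± 0.21, adjusted p = 0.00428) and the vitamin D 25-hydroxylase Cyp2r1 (0.31 ± 0.09, adjusted p = 0.0158) were higher with overlapping groups. On hepatocyte proteins none of these 6 was called, and Cyp2d22 and Cyp2r1 turned slightly negative, at -0.0062 and -0.076. Cyp2e1 ranged from 4587 over 6788 to 9739 CPM in male WT and from 7441 over 9183 to 9813 CPM in male SIRT6-tg, with 5 male WT mice below the SIRT6-tg range and 2 within it (0.36 ± 0.12, adjusted p = 0.0355). Its call was lost in 15 of 24 alternatives, and its value on hepatocyte proteins was 0.0014.

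The 3 members lower in male SIRT6-tg were Cyp1b1, Cyp2g1 and Cyp2a4. Cyp1b1 ranged from 1.29 over 1.89 to 2.12 CPM in male WT and from 0.300 over 0.466 to 0.660 CPM in male SIRT6-tg, with no overlap (log2 fold change -1.92 ± 0.26, adjusted p = 1.92e-06). It was called in all 24 alternatives, at -2.29 to -1.83. Cyp1b1 is made by stellate cells and leukocytes more than by hepatocytes, and in the same libraries the stellate list fell for 7 of 7 genes, from 356 to 590 CPM summed in male WT to 243 to 336 CPM, and the T cell and macrophage lists as given above. The part of these cells in the fall of Cyp1b1 was not tested.

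Cyp2g1, an olfactory P450 with low levels in liver, ranged from 1.14 over 4.42 to 6.17 CPM in male WT and from 0.742 over 1.40 to 3.16 CPM in male SIRT6-tg (-1.24 ± 0.33, adjusted p = 0.00788), with overlap and a call in all 24 alternatives. Cyp2a4, at 1.18, 1.63, 5.19, 3.27, 29.7, 21.5 and 11.3 CPM in male WT mice 1 to 7, spread over the widest range of the 3. Male SIRT6-tg had 0.658 to 5.94 CPM, with a median of 3.30 (-1.81 ± 0.60, adjusted p = 0.0334). Its call was lost in 11 of 24 alternatives, among them leaving out male WT mouse 5, 6 or 7 or SIRT6-tg mouse 1, 2, 4 or 6.

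Among the inducible members, Cyp1a and Cyp3a11 gave no call. Cyp1a1, the classic target of the aryl hydrocarbon receptor, was at 0.934 to 1.71 CPM in male WT and 0.900 to 1.28 CPM in male SIRT6-tg (-0.16 ± 0.20, adjusted p = 0.649). Cyp1a2 was at 424 to 792 and 430 to 878 CPM (0.07 ± 0.16, adjusted p = 0.813), and Cyp3a11 at 2485 to 4751 and 3149 to 5891 CPM (0.26 ± 0.15, adjusted p = 0.251). Of the other Cyp3a members, Cyp3a25 passed, at 381 to 643 and 506 to 775 CPM (log2 fold change 0.45, adjusted p = 0.00634). It lost the call with library size alone and on hepatocyte proteins. Cyp2b10 passed, at 0.520 to 5.84 CPM in male WT and 2.68 to 11.99 CPM in male SIRT6-tg (1.36 ± 0.38, adjusted p = 0.0105), with a loss of the call on hepatocyte proteins. Cyp2s1 and Cyp2t4, the barely detected single members of their subfamilies, did not pass (-0.80 ± 0.53, adjusted p = 0.306, and -0.18 ± 0.42, adjusted p = 0.822). Cyp2a5 and Cyp2d9, abundant in males, did not pass either (-0.15 ± 0.25, adjusted p = 0.738, and 0.38 ± 0.31, adjusted p = 0.430).

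**Figure D4:**
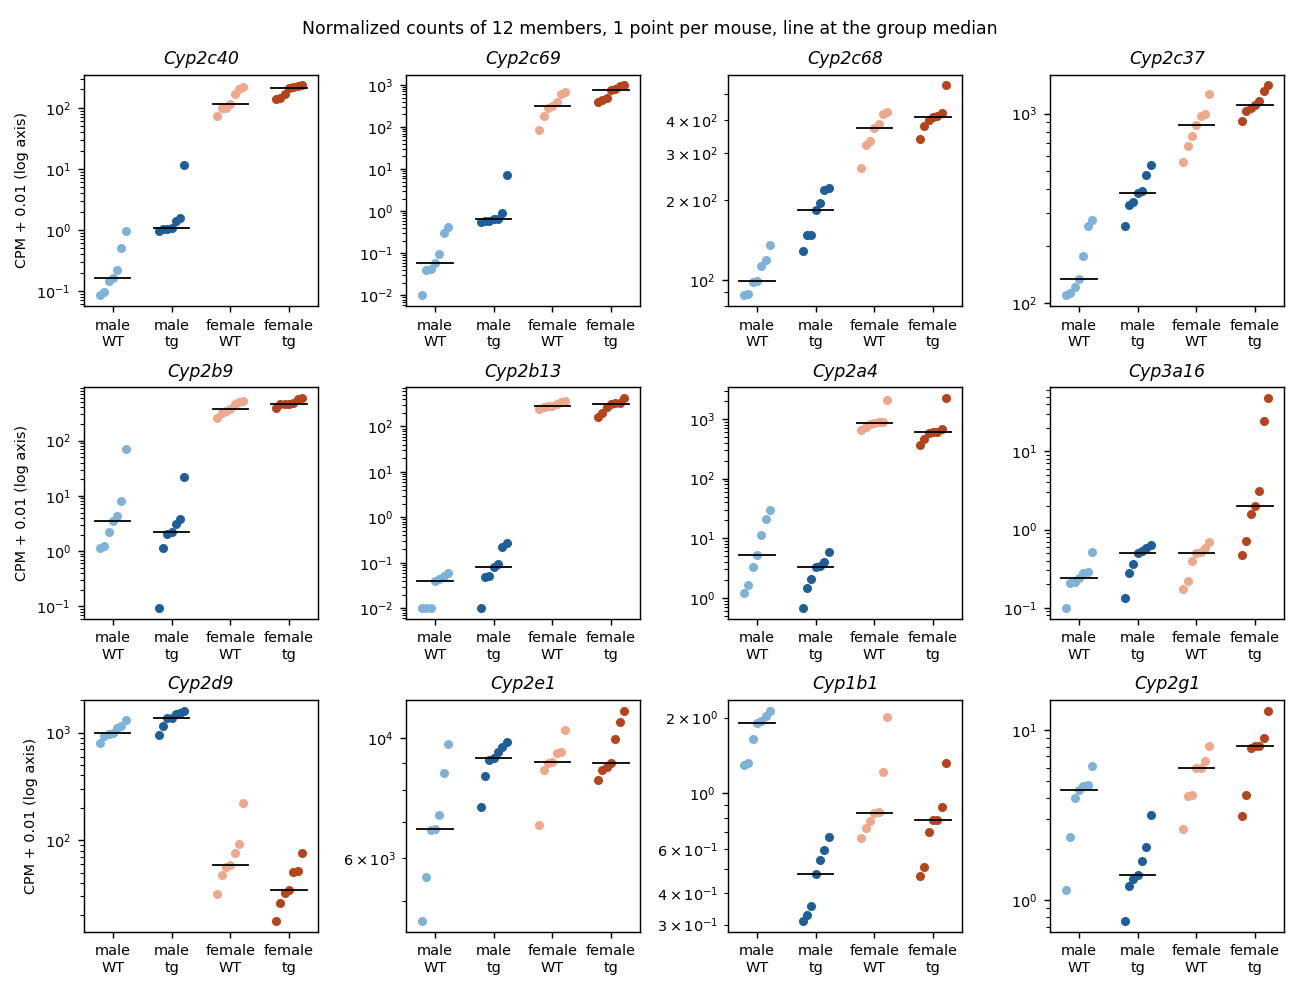
Level of 12 members in each mouse, as CPM plus 0.01 on a log axis (y), in male WT, male tg, female WT and female tg (x), with a line at each group's median. One male tg mouse stands above the rest of its group for Cyp2c40, Cyp2c69 and Cyp2b9, 1 male WT mouse for Cyp2b9, and 2 female tg mice for Cyp3a16.

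In females, SIRT6-tg and WT livers differed in 1 of the 50 tested members, Cyp3a16, where 0.0278% of all genes, 6 in number, were called (0.0232% higher and 0.00463% lower). At an unadjusted p under 0.05 there were 9 members of 50, against 5.62% of all genes, and 0 members had groups without overlap, against 0.0834% of all genes (0.0417% higher and 0.0417% lower). DESeq2 called 1 member as well, against 0.204% of all genes. Cyp3a16 (chr5:145436309-145469723) is a member of the Cyp3a cluster that is known from fetal and young mouse liver. It was 0.572, 0.691, 0.489, 0.501, 0.161, 0.383 and 0.210 CPM in female WT mice 1 to 7 and 1.99, 3.10, 24.7, 48.1, 0.457, 1.59 and 0.696 CPM in female SIRT6-tg mice 1 to 7. SIRT6-tg mice 3 and 4 stood far above the rest, and mouse 5 lay within the WT range (log2 fold change 4.72 ± 0.83, adjusted p = 0.0202).

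Cyp3a16 was no longer called when female SIRT6-tg mouse 3 or mouse 4, or female WT mouse 3, 5, 6 or 7, was left out, when only females were fitted, or with a replicate block. Across the alternatives the adjusted p lay between 5.46e-07 and 0.518 and the value between 3.63 and 4.98. In males it was at 0.0883 to 0.506 CPM in WT and 0.124 to 0.624 CPM in SIRT6-tg (0.77 ± 1.04, adjusted p = 0.671). Its neighbour Cyp3a44, with a promoter 93.4% identical, had 5.41 to 74.5 CPM in female WT and 28.1 to 109 CPM in female SIRT6-tg and did not pass (1.31 ± 0.39, adjusted p = 0.404). Cyp3a41a, a further near copy that the symbol pattern leaves out, also peaked at 32.1 CPM among the female SIRT6-tg mice, against at most 2.77 CPM in female WT.

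The female-type Cyp2c members of females did not pass the genotype test. Cyp2c40 ranged from 73.8 over 116 to 221 CPM in WT and from 138 over 212 to 236 CPM in SIRT6-tg (0.45 ± 0.43, adjusted p = 1.00), and Cyp2c69 from 82.9 over 317 to 695 and from 402 over 760 to 991 CPM (0.92 ± 0.48, adjusted p = 0.927). Cyp2d9 stood at 31.6 to 221 CPM in female WT and 17.7 to 75.9 CPM in female SIRT6-tg (-1.01 ± 0.31, adjusted p = 0.431). Cyp2e1, at 6913 to 10362 and 8362 to 11221 CPM, gave 0.09 ± 0.12 (adjusted p = 1.00). The median log2 fold change of the members was 0.03.

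**Figure D5:**
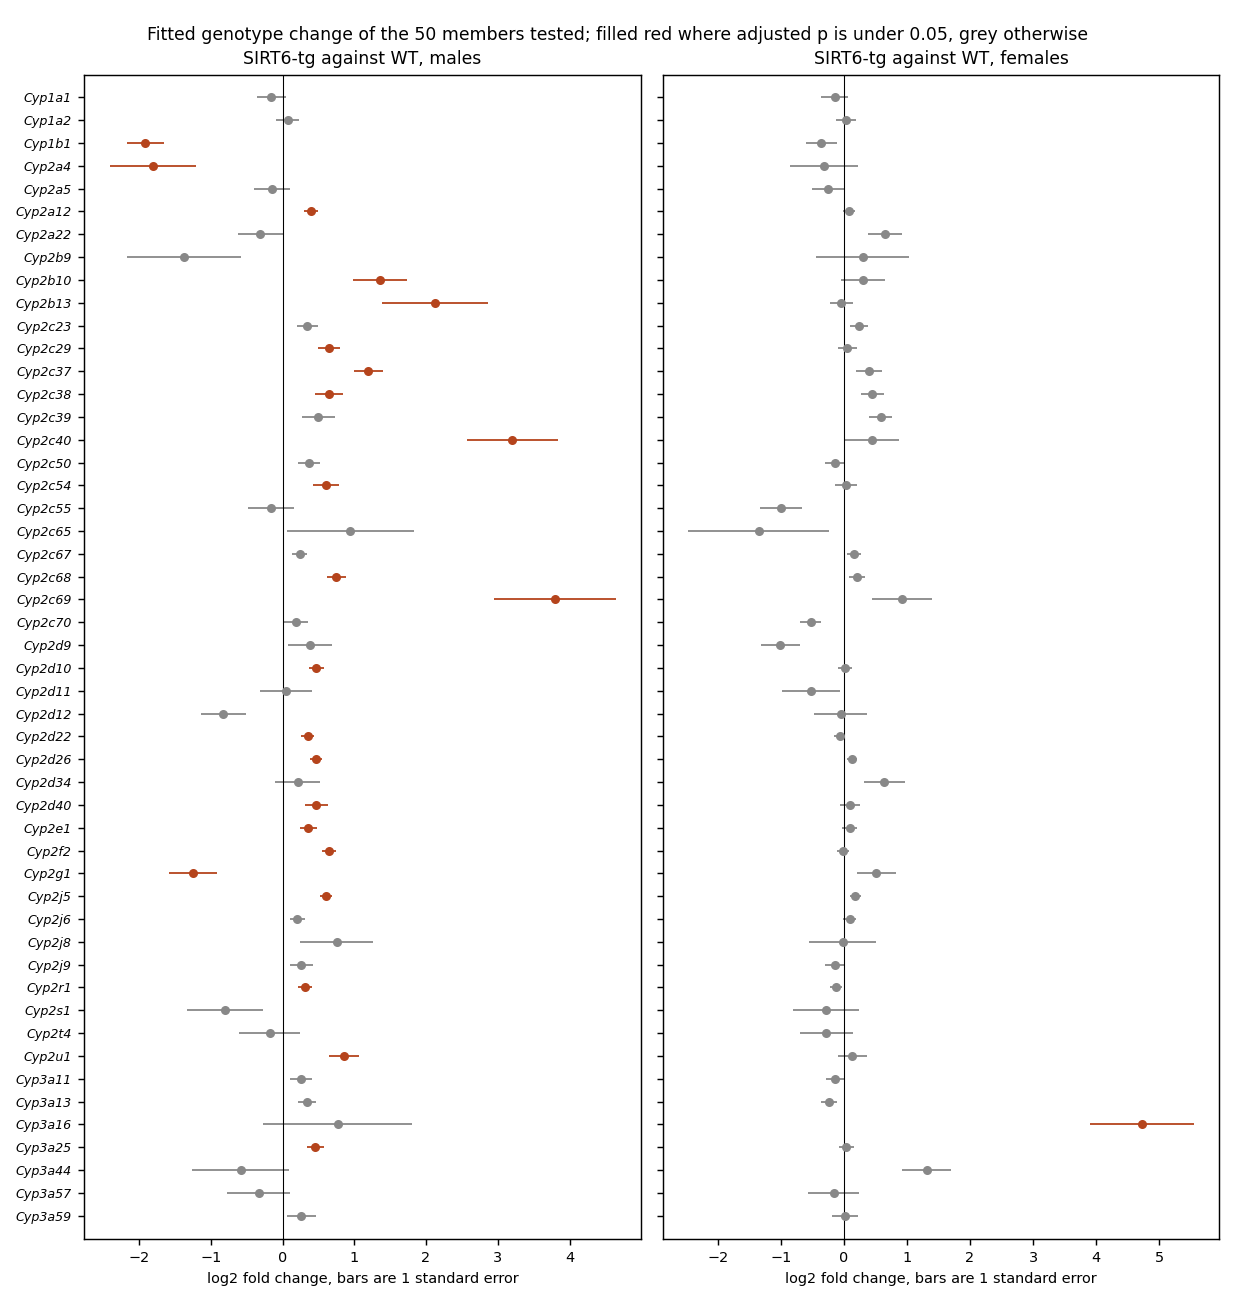
Fitted log2 fold change of SIRT6-tg against WT (x axes) of the 50 tested members (y axis, by subfamily) in males and in females. Points are estimates, bars are 1 standard error, red marks adjusted p under 0.05 and grey the rest. Most male points lie right of 0 in this TMM scaling, which the scaling on secreted hepatocyte proteins removes, and in females only Cyp3a16 is red.

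The response to the transgene was then compared between males and females, and 7 members were called, against 5.05% of all genes tested. Of them 5 were above 0 (1.20% of all genes) and 2 below 0 (3.84%). The effect in males minus that in females was above 0 for Cyp2c40 (2.76 ± 0.78, adjusted p = 0.0364), Cyp2f2 (0.66 ± 0.14, adjusted p = 0.00418), Cyp2r1 (0.44 ± 0.13, adjusted p = 0.0437), Cyp2j5 (0.42 ± 0.12, adjusted p = 0.0374) and Cyp2d22 (0.42 ± 0.13, adjusted p = 0.0483). It was below 0 for Cyp1b1 (-1.56 ± 0.36, adjusted p = 0.00813) and Cyp2g1 (-1.75 ± 0.46, adjusted p = 0.0208). Cyp2f2 was at 495 to 673 CPM in female WT and 464 to 655 CPM in female SIRT6-tg (-0.01 ± 0.10, adjusted p = 1.00), so the male groups differed where the female groups covered the same range. Cyp1b1 was at 0.653 to 2.004 and 0.458 to 1.31 CPM in the female groups (-0.36 ± 0.25, adjusted p = 1.00), and Cyp2g1 at 2.63 to 8.10 and 3.12 to 13.0 CPM (0.51 ± 0.31, adjusted p = 1.00).

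Without male WT mouse 5 the count was 12, against 5.53% of all genes. Of the 7, Cyp1b1 and Cyp2g1 were called in all 37 alternatives and Cyp2f2 in 35. Cyp2c40 was called in 22, Cyp2j5 and Cyp2r1 in 13 each and Cyp2d22 in 7, and these 4 lost the call with the replicate block. Without male SIRT6-tg mouse 3 the value of Cyp2c40 was 1.57 and was not called. On hepatocyte proteins the differences of Cyp2d22, Cyp2r1 and Cyp2j5 turned to -0.043, -0.046 and -0.059, and those of Cyp2c40 and Cyp2f2 kept their sign without a call. In that scaling 0 members were above 0 and 5 below 0, namely Cyp1b1, Cyp2g1 and the newly called Cyp2a22, Cyp3a16 and Cyp3a44, against 0.0788% and 12.4% of all genes. With library size alone 1 was above 0 and 2 below 0, against 0.120% and 8.51%. For the other 16 members called in male mice alone, the comparison of males with females did not pass the test, so a difference in response is not shown for them. As the transgene mRNA of males was 9.30-fold that of females, sex and dose cannot be told apart here.

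Between male SIRT6-tg and female SIRT6-tg, 29 members were called, 13 higher in males and 16 higher in females, against 23.1% of all genes tested (12.9% and 10.2%). The ranges did not overlap for 14 members, against 6.13%, with 3 higher in males (3.58%) and 11 higher in females (2.56%). These comparisons share their libraries with those above, so the values are set side by side. For Cyp2c37 the log2 difference of males minus females was -2.36 ± 0.21 in WT and -1.57 ± 0.20 in SIRT6-tg (adjusted p = 1.70e-06), and for Cyp2c68 -1.77 ± 0.13 and -1.23 ± 0.13 (adjusted p = 4.90e-08). For Cyp2d9 it was 3.64 ± 0.34 in WT and 5.03 ± 0.36 in SIRT6-tg (adjusted p = 5.15e-11), and for Cyp2u1 2.49 ± 0.23 and 3.22 ± 0.24 (adjusted p = 2.60e-11). The change of these differences with genotype is the same test as above and passed for none of the 4 (adjusted p = 0.105, 0.0869, 0.0640 and 0.201). Cyp2f2, level between the WT sexes (0.05 ± 0.10), was higher in males among SIRT6-tg mice without overlap (0.72 ± 0.10, adjusted p = 4.19e-06), and Cyp3a11 was higher in males as well (0.54 ± 0.15, adjusted p = 0.0108).

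Partners and regulators of these enzymes were read in the same fit. The rises given next depend on the TMM scaling, since with library size alone or with secreted hepatocyte proteins 0 genes of the redox, haem synthesis, liver factor, sensor and sex pattern lists were called higher, while sensors had 2 lower of 10 and the sex pattern list 1 lower of 11. Of 5 redox partners, 3 were higher in male SIRT6-tg and 0 lower, which are Cyb5a, the electron donor cytochrome b5 (0.43 ± 0.14, adjusted p = 0.0231), its reductase Cyb5r3 (0.33 ± 0.12, adjusted p = 0.0452) and the P450-binding Pgrmc1 (0.36 ± 0.08, adjusted p = 0.00254). The P450 reductase Por, at 262 to 519 CPM in male WT and 247 to 603 CPM in male SIRT6-tg, did not pass (0.22 ± 0.19, adjusted p = 0.462). Of 8 enzymes of haem synthesis, 4 were higher and 0 lower, from Ppox (0.25 ± 0.09, adjusted p = 0.0371) to Urod (0.47 ± 0.15, adjusted p = 0.0265), with Uros (0.37 ± 0.12, adjusted p = 0.0290) and Fech, which inserts the iron (0.30 ± 0.08, adjusted p = 0.00522). The rate-limiting Alas1 spread from 171 to 622 CPM in male WT and 154 to 1345 CPM in male SIRT6-tg and did not pass (0.78 ± 0.43, adjusted p = 0.219).

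Among 10 xenobiotic sensors 1 was higher and 1 lower in male SIRT6-tg. Rxrb, a partner of CAR and PXR, rose (0.26 ± 0.08, adjusted p = 0.0196), and Ahrr, the repressor of the aryl hydrocarbon receptor, fell from 0.118 to 0.667 CPM in WT to at most 0.375 CPM (-1.47 ± 0.41, adjusted p = 0.00922). Nr1i2 and Nr1i3 did not pass (0.24 ± 0.12, adjusted p = 0.151, and 0.13 ± 0.20, adjusted p = 0.698). Of 8 liver-enriched transcription factors, Cebpa (458 to 575 against 664 to 756 CPM, 0.47 ± 0.09, adjusted p = 0.000134), Foxa1 (0.50 ± 0.17, adjusted p = 0.0354) and Foxa2 (0.63 ± 0.18, adjusted p = 0.00920) were higher and 0 lower. Onecut1 did not pass (1.22 ± 0.55, adjusted p = 0.118). Of 11 genes tied to the sex pattern of liver, 1 was higher, the growth hormone receptor Ghr (332 to 605 against 537 to 769 CPM, 0.44 ± 0.11, adjusted p = 0.00302), and 0 lower. No gene of these 5 lists was called in females.

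Cux2, a transcription factor known as female-specific in liver, stood at 0.366 to 1.36 CPM in male WT and 0.333 to 0.726 CPM in male SIRT6-tg, against 6.81 to 73.8 and 25.3 to 73.6 CPM in the females. Its genotype values were -0.14 ± 0.56 in males and 0.53 ± 0.35 in females (adjusted p = 0.902 and 1.00). Markers of the zones of the lobule were also counted. Of 10 pericentral genes, 0 were higher and 1 lower in male SIRT6-tg, and of 10 periportal genes 5 were higher and 0 lower, which became 0 higher and 4 lower, and 0 higher and 1 lower, with secreted hepatocyte proteins. The part of zonation in the P450 values was not tested.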

How the data were processed

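RNA was sequenced from 28 livers, 7 per group of sex and genotype. The authors aligned the reads with STAR 2.5.0a to mm10, kept reads that map to 1 place and counted them per gene with HTSeq, per the labels and the submitters' processing notes, and deposited these unnormalized counts in 1 table. The strand setting of the counting is not given in the sources used here. Symbols and coordinates were taken from Gencode vM21 (GRCm38) by gene identifier, and 49326 of 49585 features received a symbol. Genes with a mean of at least 0.5 counts after DESeq2 size factors were kept (21583 genes).

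The deposited counts were scaled by TMM and fitted with the quasi-likelihood test of edgeR 4.0.16 (limma 3.58.1, R 4.3.3) on all 28 libraries, with 1 coefficient per group and no covariate. Adjusted p-values are Benjamini-Hochberg values over all genes tested, and 0.05 was the threshold. Errors of log2 values are standard errors, computed as the absolute log2 value divided by the square root of its quasi-likelihood F. Where a group has few counts, the log2 value and so its error depend on the prior count of the fit. CPM are TMM-scaled, and per kilobase values divide by the merged exon length. Depth was 18758863 to 35393069 counts. A count of 0 allows up to 3 counts at 95% confidence, which covers counting error only. The p-values measure the spread between these mice. The fit was tested on simulated data. Alternatives were other scalings (RLE, upper quartile, library size, 15 secreted hepatocyte proteins), other filters, a replicate block, the compared groups alone, DESeq2 1.42.0 and leaving out each library.

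The members and gene lists were chosen with earlier results of these data known. Members named with values were those called in a genotype comparison or in its difference between the sexes (at most the 12 with the lowest adjusted p in 1 direction), the 8 with the lowest adjusted p in each direction between the WT sexes without overlap, the most abundant member per kilobase of each subfamily, and Cyp1a1, Cyp1a2, Cyp1b1, Cyp2e1, Cyp3a11 and Cyp3a16. Members and list genes named outside this rule, such as Cyp2b10, Cyp2c67, Cyp2d40, Cyp3a25, Cyp3a44, Por, Alas1 and Cux2, were chosen after their values were seen. The replicate numbers were not used as a block, since the authors' methods name no pairing by number. In a check of same-numbered mice, 1 to 3 of 7 pairs per pair of groups had a correlation of deviations over 0.1. Litter and cage are not in the labels, so this check cannot show whether mice shared them.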

Additional observations from a re-analysis of the deposited data

Results flagged for a closer look

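Of 120 groups of 7 mice of the named members, 12 (10%) held a mouse far from the others by Dixon's test. For independent, normally distributed values chance gives about 5%. The CPM were not log-transformed and near copies share mice, so this rate need not hold here and an excess is not shown. Male SIRT6-tg mouse 3 was high for Cyp2c40 (11.4 CPM, the others 0.955 to 1.57), Cyp2c69 (7.33 CPM, the others 0.541 to 0.902) and Cyp2b9 (21.9 CPM, the others 0.0822 to 3.83), and male WT mouse 5 for Cyp2b9 (71.8 CPM, the others 1.11 to 8.01). Female WT mouse 1 was high for Cyp2a4 (2058 CPM) and Cyp1b1 (2.004 CPM) and low for Cyp1a2 (275 CPM). Female SIRT6-tg mouse 6 was high for Cyp2a4 (2268 CPM), female SIRT6-tg mouse 1 for Cyp2c68 (542 CPM) and female WT mouse 3 for Cyp2d9 (221 CPM, the others 31.6 to 92.6). Male SIRT6-tg mouse 2 was high for Cyp2c29 (1776 CPM) and mouse 4 for Cyp3a11 (5891 CPM).

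The genotype effect differed between the sexes (edgeR, interaction, males minus females, log2) for Cyp1b1 (-1.56), Cyp2g1 (-1.75), Cyp2c40 (2.76), Cyp2f2 (0.66), Cyp2r1 (0.44), Cyp2j5 (0.42) and Cyp2d22 (0.42). Sex and the level of Sirt6 cannot be told apart in these values.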

How the results depend on the processing

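The number of members called between male SIRT6-tg and male WT (23) was 11 with library size alone, 8 with secreted hepatocyte proteins and 15 with the compared groups alone (19.9%, 20.6% and 16.6% of all genes). It was 19 to 26 when 1 library was left out (15.3% to 22.3% of all genes). Between the females (1) it was 0 with the replicate block (0.0278% of all genes) and 0 with females alone (0.00933%). When 1 library was left out it was 0 to 1 (0.0139% to 0.0743%). For the difference between the sexes (7) it was 4 with RLE (4.86% of all genes) and with upper-quartile scaling (5.02%). It was 3 with library size (8.63%), with no filter (2.67%) and with the replicate block (4.58%). With secreted hepatocyte proteins it was 5 (0 above and 5 below 0, against 12.4% of all genes), and with DESeq2 12 (7.12%). When 1 library was left out it was 3 to 12 (3.69% to 6.31%). It was 12 without male WT mouse 5 (5.53% of all genes) and 3 or 4 without male WT mouse 3, 4, 6 or 7, male SIRT6-tg mouse 1, 2, 4 or 7, female WT mouse 4 or 5, or female SIRT6-tg mouse 2, 4 or 5 (3.69% to 4.92%). Leaving out male WT mouse 5, male SIRT6-tg mouse 3 and female WT mouse 3 together, chosen after seeing the data, gave 23, 0 and 12 for these comparisons (18.8%, 0.0139% and 4.68% of all genes). Total counts between the sexes were 25 to 31 in WT and 27 to 31 in SIRT6-tg over the settings. They were 24 to 28 and 26 to 30 when 1 library was left out. These totals hide a change of direction in WT. With secreted hepatocyte proteins more called members were higher in males than in females, the reverse of TMM. The summed level of these proteins was itself 121840 to 161309 CPM in male WT and 181133 to 234766 CPM in female WT. Scaling on them thus raises the values of all genes in male WT against female WT. Of all genes, 12.4% were called between the WT sexes with TMM and 45.7% with these proteins (44.6% higher in males, 1.08% higher in females). Between the SIRT6-tg sexes these shares were 23.1% and 18.9%. Why these proteins differed between the WT sexes was not tested, nor was the cause of the shift between the SIRT6-tg sexes.

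On secreted hepatocyte proteins the sign turned for Cyp2d22 (-0.0062 in males, -0.043 for the sex difference), Cyp2r1 (-0.076 and -0.046), Cyp2j5 (-0.059 for the sex difference) and Cyp2d26 (0.071 between the WT sexes). Of the other refits of values of named members called in the main fit, 1437 kept direction and call and 184 lost the call. These totals pool the comparisons, and most refits leave out only 1 library. Held in all alternatives were 6 of 19 values for male SIRT6-tg against male WT, 0 of 1 between the females and 2 of 7 for the sex difference. Between the sexes they were 13 of 17 in WT and 18 of 20 in SIRT6-tg. With the length of the longest transcript, the sums per kilobase (male WT and tg, then female WT and tg) were 9429, 12155, 12485 and 12977 for all members and 1516, 1857, 1484 and 1406 for Cyp3a. For Cyp2c they were 1934, 2762 and 3068 in SIRT6-tg males and in WT and SIRT6-tg females, and for Cyp2d 1320, 1767 and 938 in male WT, male SIRT6-tg and female SIRT6-tg. With library size, male WT and SIRT6-tg had 8733 and 9305 for all members, 1204 and 1331 for Cyp2d and 238 and 289 for Cyp2j.

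The correlation of deviations showed no clear pairing of the mice by replicate number. A replicate block gave 22 members called in males (19.5% of all genes), 0 in females (0.0278%) and 3 for the sex difference (4.58%). Between the WT sexes it gave 26 (11.5%) and between the SIRT6-tg sexes 28 (22.3%). Depth limits members at a few counts, such as Cyp2b13 in males.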
